A study of Mus musculus with 8 samples.

Results

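The subunits of the phagocyte NADPH oxidase were followed across mouse bone marrow derived macrophages of 2 genotypes under 2 agents. Cybb, Cyba, Ncf1, Ncf4 and Rac2 were represented by every probe set that the array annotation assigned to them, which gave 6 probe sets, out of 22626 without controls, for 5 of 12393 named genes. Cybb, Cyba, Ncf4 and Rac2 had 1 probe set each, and Ncf1 had 2. All 6 passed the signal filter and were tested with 18058 probe sets in all, and on no array was any of them at the floor of 15.5 that replaced low signals.

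The marrow cells had grown for 7 days in medium with M-CSF (50 ng/ml). The groups were Vdr-/- cells (allele Vdr tm1 Rge, labelled a knockout of Vdr, the vitamin D receptor gene) and wild-type cells, each with IFN-gamma plus calcitriol, IFN-gamma alone, calcitriol alone (1alpha,25(OH)2D3, the active form of vitamin D) or no treatment, with 1 array per group. All groups share the culture in M-CSF, and treatments lasted 24 to 48 hours with no single time stated. The sources used here state no strain, age, pooling of mice or dose, and the effect of genotype cannot be told apart from that of the donor mice and their cultures. Values are linear array signals, which cannot be compared in level from one probe set to another. With 8 arrays and 1 per group, a single array has no error of its own. Every test below sets a contrast over pairs of arrays against a spread moderated across probe sets of similar signal. The SE can thus be smaller than the disagreement of the pairs alone would give, and a small p-value does not mean that the pairs agreed.

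The phagocyte oxidase moves electrons from NADPH across a membrane to oxygen and so makes superoxide, the source of the respiratory burst that helps kill ingested microbes. Cybb encodes the catalytic subunit gp91phox, which is stable in the membrane together with the p22phox subunit encoded by Cyba. The cytosolic proteins encoded by Ncf1 (the organiser p47phox) and Ncf4 (p40phox, which binds a phosphoinositide of the phagosome) join them on activation, with a Rac GTPase such as Rac2. Loss of a core subunit in humans causes chronic granulomatous disease, and IFN-gamma is a known inducer of the human genes for gp91phox and p47phox.

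The labels and the RNA were checked first. The 2 Vdr probe sets read 90.3 and 63.2 on the array labelled Vdr-/- untreated, against 6.7 and 5.3 on the array labelled wild-type untreated, which is opposite to the labels. In the other 3 treatments they read 2.5 to 45.6 in Vdr-/- cells and 51.5 to 385.9 in wild-type cells, and where these probe sets lie relative to the targeted part of the gene is not known here. The 3'/5' signal ratio of the Gapdh control, a measure that is high for RNA cut short at its 5' end, was 3.06 to 7.67 on 3 arrays (wild-type calcitriol 7.67, the array labelled Vdr-/- untreated 4.82, Vdr-/- IFN-gamma 3.06) and 0.853 to 1.65 on the other 5. The actin control gave 4.08 on wild-type calcitriol and 3.27 on the array labelled Vdr-/- untreated, but 1.53 on Vdr-/- IFN-gamma. That last value lies within the 1.39 to 1.81 of the other 5. Each array was also correlated with the others (Pearson's r over tested probe sets, 0.741 to 0.897 over all pairs). The highest r was smallest on the arrays labelled wild-type calcitriol (0.781) and Vdr-/- untreated (0.809), against 0.86 to 0.897 on the rest. Their lowest r were 0.741 and 0.77, and the wild-type IFN-gamma array also had a lowest r of 0.741. Of 10 listed macrophage markers 9 were tested, and their summed signal was 46303 to 60704 on IFN-gamma arrays and 61456 to 70980 without IFN-gamma. In RNA of a whole culture, fewer cells of a type and less RNA per cell cannot be told apart.

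Cybb, the catalytic subunit, varied 9.32-fold between the lowest and the highest array. It read 2054 in Vdr-/- cells and 1280.5 in wild-type cells with both agents, and 659.7 in Vdr-/- cells and 2927 in wild-type cells with IFN-gamma alone. With calcitriol alone it read 3526 in Vdr-/- cells and 491.7 in wild-type cells, and on the arrays labelled untreated 378.1 in Vdr-/- and 1442 in wild type. The signals were thus high in Vdr-/- cells with calcitriol and in wild-type cells without it. The lowest array was the one labelled Vdr-/- untreated, followed by wild-type calcitriol and Vdr-/- IFN-gamma, and the highest was Vdr-/- calcitriol.

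Cyba, the membrane partner of the catalytic subunit, varied 2.3-fold. It read 6515 in Vdr-/- cells and 6495 in wild-type cells with both agents, and 5089 in Vdr-/- cells and 8184 in wild-type cells with IFN-gamma alone. With calcitriol alone it read 6578.5 in Vdr-/- cells and 5309 in wild-type cells, and 4126 in Vdr-/- and 9495 in wild type on the arrays labelled untreated. Cyba thus had the narrowest range of the 5 genes, with both its extremes on the 2 untreated arrays.

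Ncf1, the organiser, varied 15.1-fold on its brighter probe set and 86.7-fold on its dimmer one, both annotated to the same expressed sequence tag. The brighter read 1635 in Vdr-/- cells and 1019.5 in wild-type cells with both agents, and 1959 in Vdr-/- cells and 1302 in wild-type cells with IFN-gamma alone. With calcitriol alone it read 1215 in Vdr-/- cells and 129.4 in wild-type cells, and 790.2 in Vdr-/- and 1282 in wild type on the arrays labelled untreated. Without the wild-type calcitriol array, the signals of the brighter probe set lay between 790.2 and 1959. The dimmer probe set also had its lowest signal, 16.3, on the wild-type calcitriol array, just above the floor, and read 460.2 to 1413 on the other 7.

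Ncf4, which encodes p40phox, varied 2.83-fold. It read 813 in Vdr-/- cells and 335.8 in wild-type cells with both agents, and 578.9 in Vdr-/- cells and 951.6 in wild-type cells with IFN-gamma alone. With calcitriol alone it read 854.7 in Vdr-/- cells and 383.1 in wild-type cells, and 441.6 in Vdr-/- and 874.7 in wild type on the arrays labelled untreated. Both wild-type calcitriol arrays lay below the other 6 arrays, and both Vdr-/- calcitriol arrays lay above both Vdr-/- arrays without calcitriol. The shares of tested probe sets with these orders were not computed.

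Rac2, the Rac GTPase of blood cells, varied 4.75-fold. It read 1083 in Vdr-/- cells and 2177 in wild-type cells with both agents, and 663.5 in Vdr-/- cells and 1236 in wild-type cells with IFN-gamma alone. With calcitriol alone it read 924 in Vdr-/- cells and 896.8 in wild-type cells, and 457.9 in Vdr-/- and 1087 in wild type on the arrays labelled untreated. Wild-type cells with both agents had the highest Rac2 signal, and the 2 Vdr-/- arrays without calcitriol had the lowest. The SD of log2 signal over the 8 arrays was 1.19 for Cybb, 1.23 for Ncf1 (brighter), 0.66 for Rac2, 0.60 for Ncf4 and 0.38 for Cyba, beside a median of 0.79 over all tested probe sets.

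**Figure D1:**
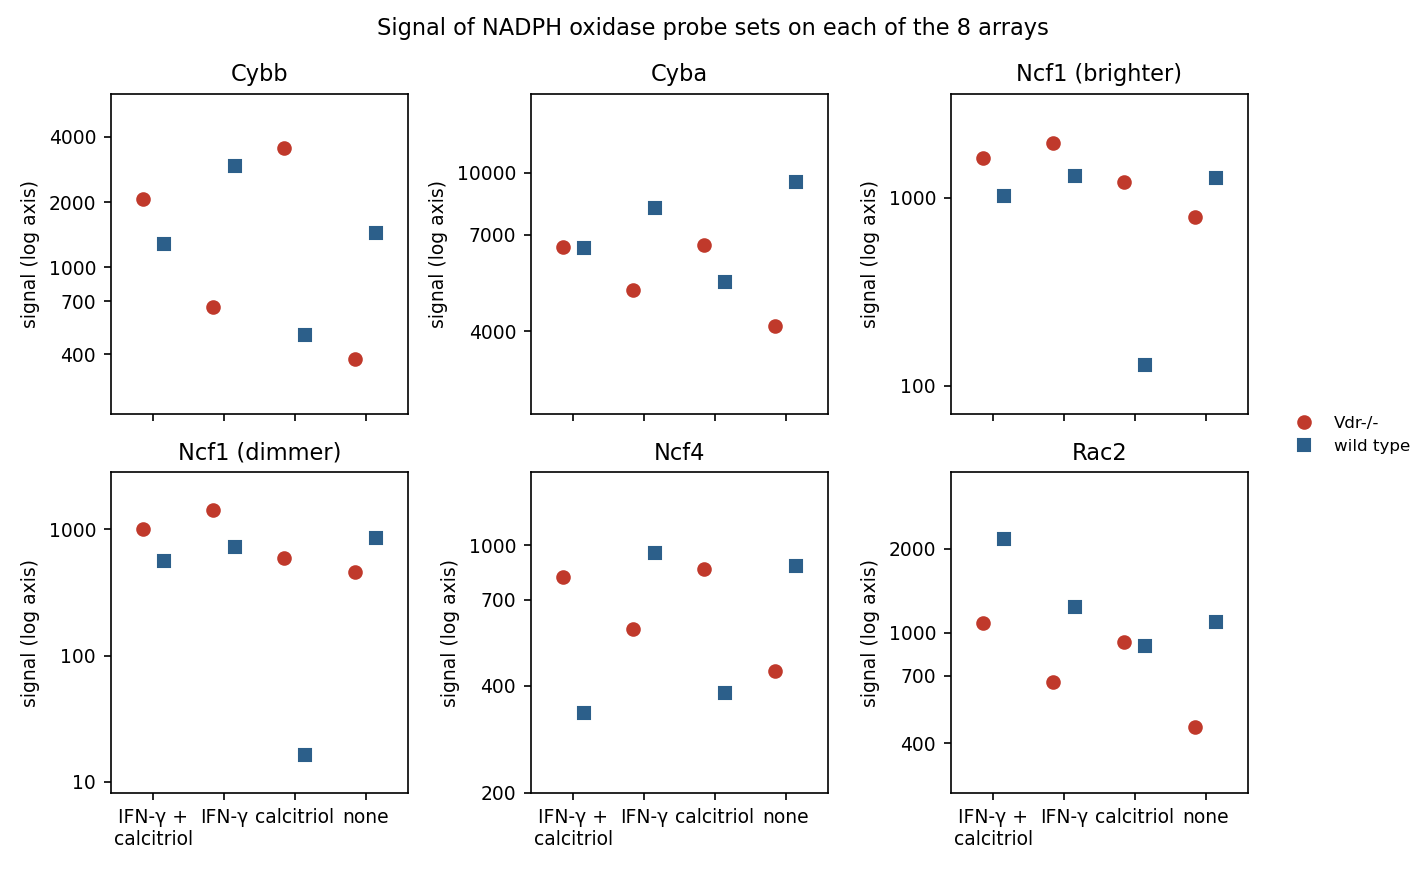
Signal (log axis, arbitrary array units) of the 6 probe sets on each of the 8 arrays, by treatment, with Vdr-/- as red circles and wild type as blue squares. Each point is 1 array; Cybb runs from 378.1 to 3526, Cyba only from 4126 to 9495, and both Ncf1 probe sets are lowest on the wild-type calcitriol array.

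The signals of several subunits moved with the Gapdh 3'/5' ratio. Of the 3 arrays with the highest Gapdh ratios, Vdr-/- IFN-gamma was not high by the actin control. Cybb read 378.1 to 659.7 on the 3 arrays with the highest ratios and 1280.5 to 3526 on the other 5. Cyba read 4126 to 5309 on those 3 arrays and 6495 to 9495 on the other 5. Rac2 read 457.9 to 896.8 on the 3 and 924 to 2177 on the 5. These ranges did not overlap for Cybb, Cyba and Rac2, with the 3 arrays lower, as was so for 2.74% of all tested probe sets (494 of 18058), and they overlapped for Ncf4 and both probe sets of Ncf1. As a description over the 8 arrays, Pearson's r of log2 signal with the log2 ratio was -0.94 for Cybb, -0.77 for Cyba, -0.75 for Ncf4, -0.71 for Ncf1 and -0.51 for Rac2, beside a median of 0.13 over all genes compared. Ncf4 and Ncf1 thus had a lower r than Rac2 although their ranges overlapped, and 0.33% of genes had a lower r than Cybb. The ratio was not balanced over the arms of the contrasts below, so values with it as a covariate, and without the 2 arrays of the highest ratio, are given beside the calls on the 5 genes. Both of these fits also replaced the blocks or nested terms by additive ones, so they change 2 choices at once.

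**Figure D2:**
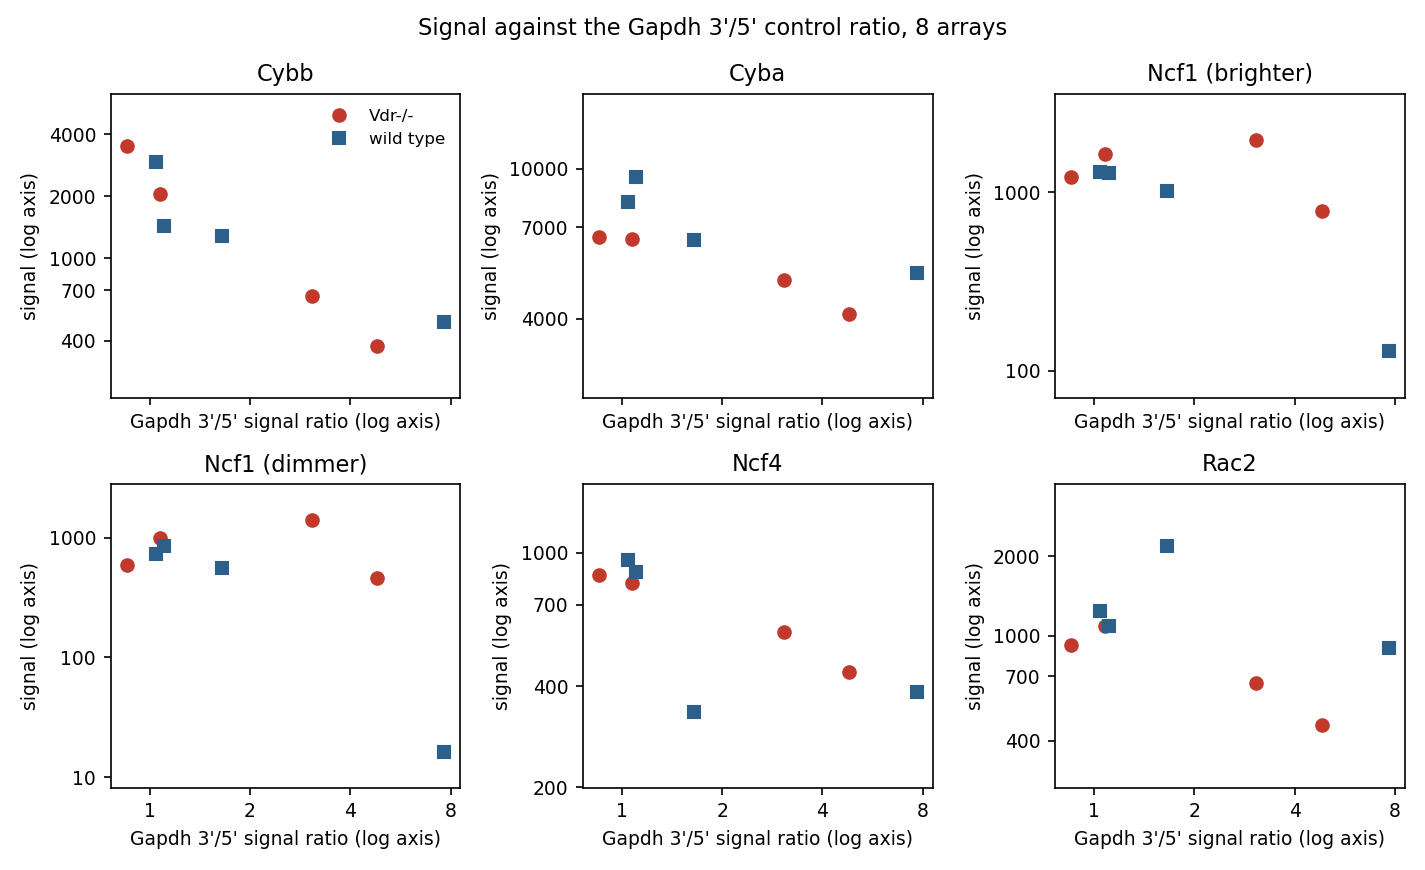
Signal of each probe set (log axis) against the Gapdh 3'/5' signal ratio of the same array (log axis), 1 point per array, Vdr-/- as red circles and wild type as blue squares. Cybb, Cyba and Rac2 are lower on all 3 arrays with a ratio of 3.06 or more than on the other 5, and Ncf1 and Ncf4 overlap.

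The first comparison asked how IFN-gamma, which activates macrophages in the classical way, bore on the oxidase genes. Ncf1 was the only one of the 5 genes that passed the test, 2.27-fold higher with IFN-gamma over 4 array pairs that differed in IFN-gamma alone. Cybb and Rac2 were 1.52-fold and 1.47-fold higher without passing it, and Cyba and Ncf4 differed by less than 1.1-fold. The count of 1 of 5 genes stands against 3.43% of all tested probe sets called in either direction (619 of 18058) (2.15% higher and 1.27% lower), by limma with Benjamini-Hochberg adjustment at 0.05. The median log2 difference of the 5 genes was 0.56, and that of all tested probe sets was -0.08.

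The brighter Ncf1 probe set had a log2 difference of 1.18 (SE 0.32, limma adjusted p = 0.0333), and the dimmer had 1.81 (SE 0.48, limma adjusted p = 0.031). The brighter was higher with IFN-gamma in 4 of 4 pairs. Its pairs gave log2 differences of 1.31 and 0.43 in Vdr-/- cells without and with calcitriol, and 0.02 and 2.98 in wild-type cells without and with calcitriol. The SD of these 4 values was 1.31, and without the intensity trend of limma the call was lost. The arms overlapped, at 1019.5 to 1959 with IFN-gamma and 129.4 to 1282 without it. Without the wild-type pair with calcitriol, which holds the array of ratio 7.67, the log2 difference was 0.59 (limma adjusted p = 0.578). With additive terms alone the adjusted p from limma was 0.193 at the same difference. With the Gapdh ratio as a covariate as well, the difference was 0.75 (limma adjusted p = 0.0624), and without both arrays of the highest ratio it was 0.20 (limma adjusted p = 0.748). Leaving out any other pair also ended the call.

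Cybb had a log2 difference of 0.61 with IFN-gamma (SE 0.27, limma adjusted p = 0.337) and was higher in 3 of 4 pairs, at 659.7 to 2927 with IFN-gamma and 378.1 to 3526 without it. The exception was the Vdr-/- pair with calcitriol, at -0.78. Without that pair Cybb passed the test with 1.07 (limma adjusted p = 0.0272). Without the 2 arrays of the highest ratio the value was -0.59 (limma adjusted p = 0.798), so its sign was not settled.

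Rac2 was higher with IFN-gamma in 4 of 4 pairs, by 0.18 to 1.28 on the log2 scale, with a mean of 0.56 (SE 0.23, limma adjusted p = 0.277). Its arms overlapped, at 663.5 to 2177 with IFN-gamma and 457.9 to 1087 without it. Cyba had a log2 difference of 0.09 (SE 0.23, limma adjusted p = 0.923), and Ncf4 had 0.06 (SE 0.23, limma adjusted p = 0.949). Each was higher in 2 pairs and lower in the other 2.

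**Figure D3:**
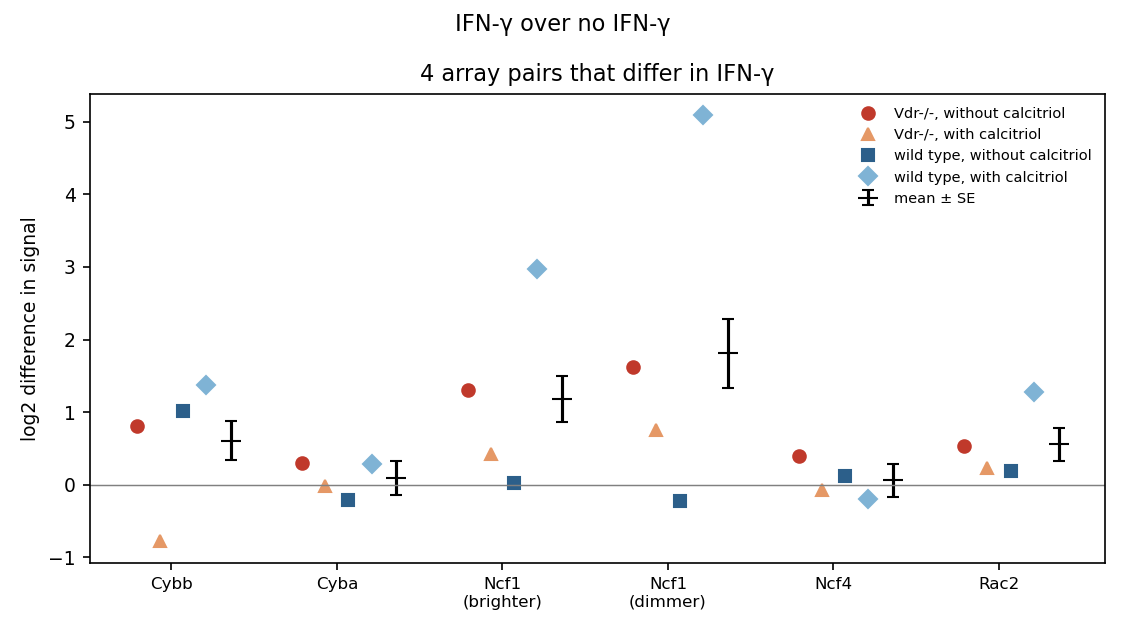
Log2 difference in signal, IFN-gamma over no IFN-gamma, for each probe set in each of the 4 array pairs (coloured symbols), with the mean and its SE from limma (black). The wild-type pair with calcitriol gives the largest value of both Ncf1 probe sets (2.98 and 5.09), and Cybb is below 0 in the Vdr-/- pair with calcitriol only.

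Interferon regulatory factors, which bind pairs of GAAA cores, and the GAS element bound by STAT factors are known regulators of oxidase genes, so the 250 bases before the start that the RefSeq table gives each gene were searched on both strands (GRCm38.p6). The table held Cybb, Cyba and Ncf1, the Cybb window lies inside the span annotated to that gene, and the motifs were chosen with these sequences in view. The sequences of Cybb and Ncf1 are shown because IFN-gamma response letters were found in both. Capitals mark the letters GAAANNGAAA or their reverse complement.
Cybb, chrX:9469325-9469574, minus strand: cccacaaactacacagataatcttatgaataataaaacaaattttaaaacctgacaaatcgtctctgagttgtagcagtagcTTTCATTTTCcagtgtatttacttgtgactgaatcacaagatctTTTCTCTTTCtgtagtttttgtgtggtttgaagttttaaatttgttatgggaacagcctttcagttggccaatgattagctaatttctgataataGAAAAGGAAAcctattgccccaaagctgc
Ncf1, chr5:134229626-134229875, minus strand: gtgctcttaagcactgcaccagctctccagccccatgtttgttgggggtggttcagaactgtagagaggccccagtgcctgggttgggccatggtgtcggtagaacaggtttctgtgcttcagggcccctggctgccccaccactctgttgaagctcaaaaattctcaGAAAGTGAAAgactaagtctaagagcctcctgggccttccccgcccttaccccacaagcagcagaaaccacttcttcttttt
The Cybb window held 3 such pairs, beginning at -168, -124 and -29 from the start. Ncf1 held 1, beginning at -82, and the GAS letters TTCNNNGAA at -88, which overlap the pair. Cyba held none of the 4 motifs searched, and neither Cybb nor Ncf1 held the PU.1 core GAGGAA or the vitamin D receptor half-site AGGTCA. Of 32851 mouse windows of the same length, 2.98% held the IRF pair, 7.02% the GAS letters, 23.3% the PU.1 core and 14% the half-site. A match of letters is not a binding site, and no match says only that these letters are absent from this window.

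Of 16 listed transcription factors known at oxidase genes, 13 were tested with IFN-gamma; 2 rose and 0 fell, with a list median of 0.16. Irf1 read 4093 in Vdr-/- and 3349 in wild-type cells with both agents, and 3711 and 4098 in Vdr-/- and wild-type cells with IFN-gamma alone. Without IFN-gamma it read 428.7 in Vdr-/- and 192.8 in wild-type cells with calcitriol, and 328.6 and 273.7 on the arrays labelled Vdr-/- and wild-type untreated. Its arms did not overlap, and its log2 difference was 3.69 (limma adjusted p = 1.85e-11). Irf8, a factor of macrophage differentiation that acts on the CYBB gene in human myeloid cells, rose by 1.50 (limma adjusted p = 4.68e-05), at 2430 to 4496 with IFN-gamma and 932.2 to 1156 without it. Spi1, which encodes PU.1, had 0.82 (limma adjusted p = 0.149).

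Genes whose proteins assemble, load or start the oxidase had signals called in both directions with IFN-gamma. Of 25 listed, 19 were tested; 1 rose and 2 fell, and the list median was -0.01. Arhgdib, a GDP-dissociation inhibitor that can hold Rac in the cytosol, rose by a log2 difference of 1.30 (SE 0.29, limma adjusted p = 0.00798). The Arhgdib arms overlapped, at 678.5 to 3097 with IFN-gamma and 310.8 to 2280.3 without it. In the Vdr-/- pair with calcitriol Arhgdib was lower with IFN-gamma, at 1969.9 against 2280.3. It read 310.8 to 678.5 on the arrays with a Gapdh ratio of 3.06 or more and 683 to 3097 on the others. Hvcn1, the proton channel that offsets the charge the oxidase moves, read 142 to 571.2 with IFN-gamma and 614.6 to 813.8 without it. The Hvcn1 arms did not overlap, and its log2 difference was -1.55 (SE 0.28, limma adjusted p = 0.00117). Prkcb, a protein kinase C that can phosphorylate p47phox, fell by 0.91 on the log2 scale (SE 0.25, limma adjusted p = 0.0393). Rac1, the ubiquitous Rac, had 0.34 (limma adjusted p = 0.66).

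Of 27 listed genes that handle superoxide and peroxide or supply NADPH, 23 were tested; 1 rose and 3 fell with IFN-gamma, with a list median of -0.30. Cat, which encodes catalase, read 161.7 to 340.6 with IFN-gamma and 593.3 to 920.2 without it, a log2 difference of -1.63 (SE 0.28, limma adjusted p = 0.000497). Gpx3, a secreted glutathione peroxidase, read 95.3 to 133.6 with IFN-gamma and 270.8 to 485.7 without it, at -1.66 (SE 0.31, limma adjusted p = 0.00149). The arms of Cat and of Gpx3 did not overlap, as for Irf1 and Hvcn1. The share of tested probe sets with IFN-gamma arms apart in this way was not computed. Srxn1, which repairs oxidised peroxiredoxins, fell by 1.37 on the log2 scale (limma adjusted p = 0.014), and Txn1, thioredoxin, had a rise of 0.80 (limma adjusted p = 0.0486). Sod2, the mitochondrial superoxide dismutase, had 0.69 (limma adjusted p = 0.103).

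Markers of macrophages and of other cells that marrow cultures can hold were read beside these values. Of 9 tested macrophage markers, Fcgr1, the high-affinity Fc gamma receptor, rose by 1.96 (limma adjusted p = 3.17e-05) and 0 fell. The other 8 had differences of -0.78 (Cd14) to -0.07 (Adgre1), and the list median was -0.29. Of 9 tested neutrophil and precursor markers, 0 passed by limma (list median -0.56); their sum was 359.9 to 455.8 with IFN-gamma and 561.7 to 826.9 without it. Their highest single signal was 270.9 (Mmp8), Elane was at the floor on 5 arrays, and the list shares S100a8 and S100a9 with the assembly list and Mpo with the peroxide list. Of 6 lymphocyte and 4 dendritic cell markers tested 0 passed by limma, and of 6 stromal markers Col3a1 fell by 2.02 on the log2 scale (limma adjusted p = 0.0308). Other NADPH oxidases had 2 of 9 listed genes tested, 0 called, and no signal above 85.2 (Duoxa2). The part of these markers in the oxidase values was not tested.

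**Figure D4:**
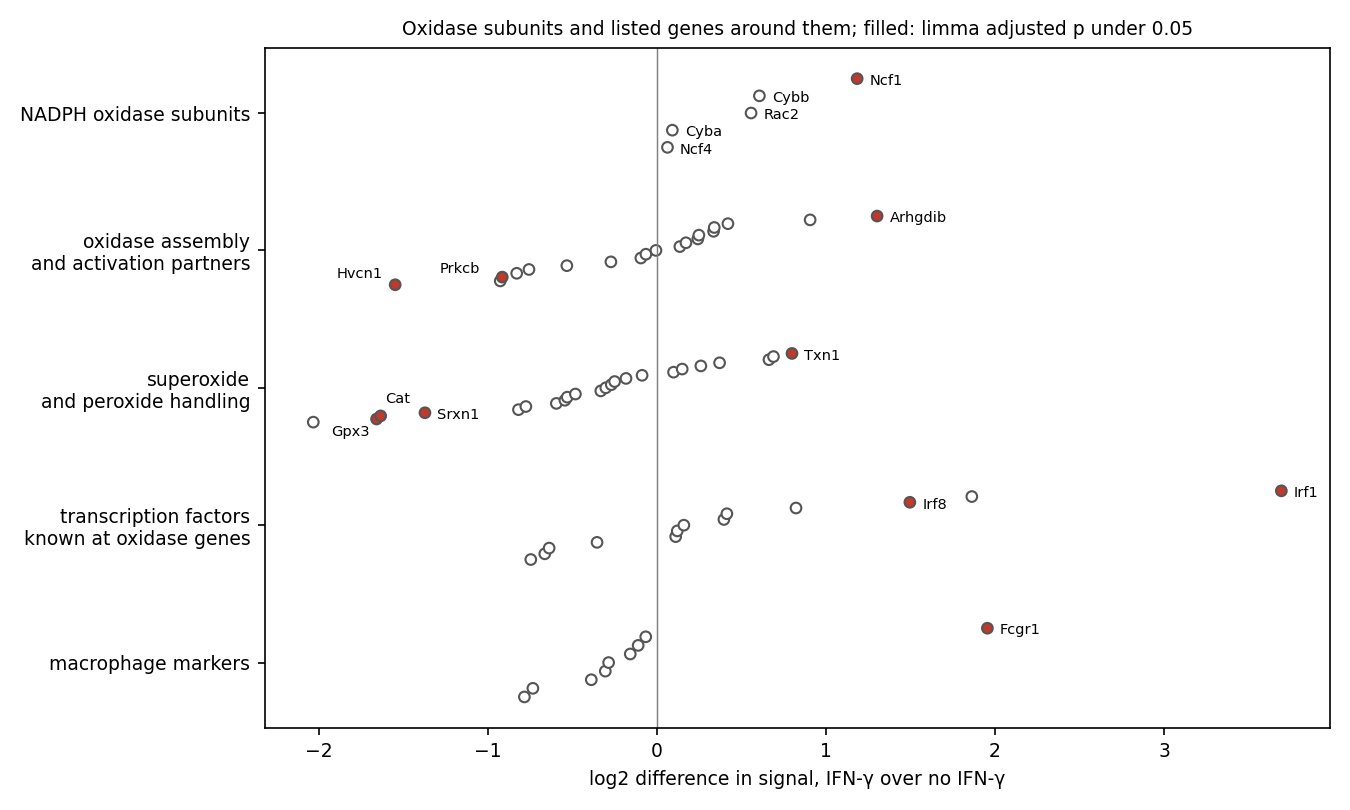
Log2 difference in signal, IFN-gamma over no IFN-gamma, for the 5 oxidase genes and 4 lists around them, 1 point per tested gene; filled points have a limma adjusted p under 0.05. Irf1 (3.69) lies farthest to the right, and Gpx3 (-1.66) and Cat (-1.63) are the filled points farthest to the left.

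The IFN-gamma differences in Vdr-/- and wild-type cells were then set against each other. For Cybb the log2 difference of effects was -1.19 (SE 0.50, limma adjusted p = 0.996), and the other subunits ran from -0.63 for Ncf1 to 0.19 for Ncf4. None of the 5 passed, as 0% of all tested probe sets did by limma, where 635 had an unadjusted p under 0.05. When the 2 untreated labels were exchanged, Cybb passed at -3.12 (limma adjusted p = 0.00455).

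The second comparison asked whether calcitriol, the ligand of the vitamin D receptor, bore on the oxidase genes in cells of either genotype. In cells labelled Vdr-/-, Cybb was 5.39-fold higher with calcitriol, and it was the only subunit to pass the test there. In wild-type cells Cybb, Cyba, Ncf1 and Ncf4 were lower with calcitriol in both pairs, at 0.386, 0.666, 0.281 and 0.393 of the level without it. None of those passed on the probe set that stands for the gene, and the dimmer Ncf1 probe set did. The difference between the genotypes passed for Cybb and Ncf4. Each effect rested on 2 pairs and a spread with 2 residual degrees of freedom, moderated across probe sets, and both effects use the untreated arrays whose Vdr signals go against their labels.

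Cybb in Vdr-/- cells read 3526 with calcitriol against 378.1 on the array labelled untreated, and 2054 with both agents against 659.7 with IFN-gamma alone. Both calcitriol arrays lay above both arrays without it, by 3.22 and 1.64 on the log2 scale, with a mean of 2.43 (SE 0.35, limma adjusted p = 0.00294). That 1 of 5 genes stands against 0.194% of tested probe sets (35 of 18058, all higher). How many tested probe sets had both calcitriol arrays above both others in Vdr-/- cells was not computed. Both arrays without calcitriol had Gapdh ratios above 3 (4.82 and 3.06), and both with calcitriol had 0.853 and 1.07. With additive terms alone the call held (limma adjusted p = 0.0132), and without the intensity trend of limma it was lost. With the ratio as a covariate the value was 1.17 (limma adjusted p = 0.874), and without the 2 arrays of the highest ratio it was 2.09 (limma adjusted p = 0.917). With the untreated labels exchanged it was 1.46 (limma adjusted p = 1), and leaving out either pair ended the call, at 1.64 and 3.22. No tested probe set passed with exchanged labels, with a pair left out, without the trend or without the 2 arrays. Those lost calls are thus not particular to Cybb.

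The other subunits in Vdr-/- cells did not pass. Rac2 had a log2 difference of 0.86 (SE 0.33, limma adjusted p = 0.619), Ncf4 0.72 (SE 0.33, limma adjusted p = 0.781) and Cyba 0.51 (SE 0.36, limma adjusted p = 0.904), each higher in 2 of 2 pairs. The share of tested probe sets higher in both pairs was not computed. The brighter Ncf1 probe set had 0.18 (SE 0.45, limma adjusted p = 0.989) with 1 pair higher and 1 lower. The median over the 5 genes was 0.72, and over all tested probe sets it was -0.08.

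Cybb in wild-type cells read 491.7 with calcitriol against 1442 on the array labelled untreated, and 1280.5 with both agents against 2927 with IFN-gamma alone. These were log2 differences of -1.55 and -1.19, with a mean of -1.37 (SE 0.35, limma adjusted p = 0.0843). The Cybb value was -0.29 with the Gapdh ratio as a covariate, -0.74 without the 2 arrays of the highest ratio and -0.41 with the untreated labels exchanged. Ncf4 had -1.35 (SE 0.33, limma adjusted p = 0.0722), with -1.19 and -1.50 in the pairs without and with IFN-gamma. Ncf1 had -1.83 on the brighter probe set (SE 0.45, limma adjusted p = 0.0697) and -3.04 on the dimmer (SE 0.66, limma adjusted p = 0.0297), the one probe set of the 6 that passed. The pair without IFN-gamma gave -3.31 and -5.70 on these 2 probe sets, and the pair with IFN-gamma gave -0.35 and -0.38. Cyba had -0.59 (SE 0.36, limma adjusted p = 0.61), and Rac2 had 0.27 (SE 0.33, limma adjusted p = 0.81) with pairs at -0.28 and 0.82. Wild-type arrays with and without calcitriol did not overlap for Cybb, Cyba, Ncf1 and Ncf4, with calcitriol lower, and overlapped for Rac2. Of all tested probe sets, 15.9% had both calcitriol arrays below the other 2 in this way.

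The count of 0 of 5 genes in wild-type cells stands against 0.576% of tested probe sets called (104; 0.188% higher and 0.388% lower), and 1857 probe sets had an unadjusted p under 0.05. Cybb, Ncf1 and Ncf4 were among these, with limma p-values of 0.000722, 0.00046 and 0.000517 before adjustment. The median over the 5 genes was -1.35, and over all tested probe sets 0.05. The ratio was 7.67 and 1.65 on the wild-type arrays with calcitriol, and 1.11 and 1.04 without it.

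Cybb had the larger of the 2 called differences between the genotypes. Its calcitriol effect in Vdr-/- cells minus that in wild-type cells was 3.80 on the log2 scale (SE 0.50, limma adjusted p = 0.000566), a 14-fold difference of effects. Ncf4 had 2.07 (SE 0.47, limma adjusted p = 0.0226), a 4.19-fold difference. For both genes every Vdr-/- pair was above 0 and every wild-type pair below 0, and the same was so for Cyba, which did not pass. The share of all tested probe sets with this pattern of signs was not computed. The 2 of 5 genes stand against 1.5% of tested probe sets called (271 of 18058) (1.33% higher and 0.172% lower).

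Ncf1 had a difference of 2.01 (SE 0.63, limma adjusted p = 0.135), Cyba 1.10 (SE 0.50, limma adjusted p = 0.378) and Rac2 0.59 (SE 0.47, limma adjusted p = 0.667), none of which passed. The median over the 5 genes was 2.01 and over all tested probe sets -0.16. With the Gapdh ratio as a covariate Cybb had 1.47 (limma adjusted p = 0.864) and Ncf4 2.36 (limma adjusted p = 0.732). Without the 2 arrays of the highest ratio they had 2.83 and 1.99 (limma adjusted p = 0.702 for both). With the untreated labels exchanged they had 1.87 (limma adjusted p = 0.298) and 1.08 (limma adjusted p = 0.776).

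Leaving out any 1 of the 4 pairs ended both calls, with Cybb at 3.01 to 4.59 and Ncf4 at 1.84 to 2.30. Those fits keep 1 residual degree of freedom. No tested probe set passed in them, nor without the 2 arrays of the highest ratio or with exchanged labels. The lost calls are thus not particular to Cybb and Ncf4.

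**Figure D5:**
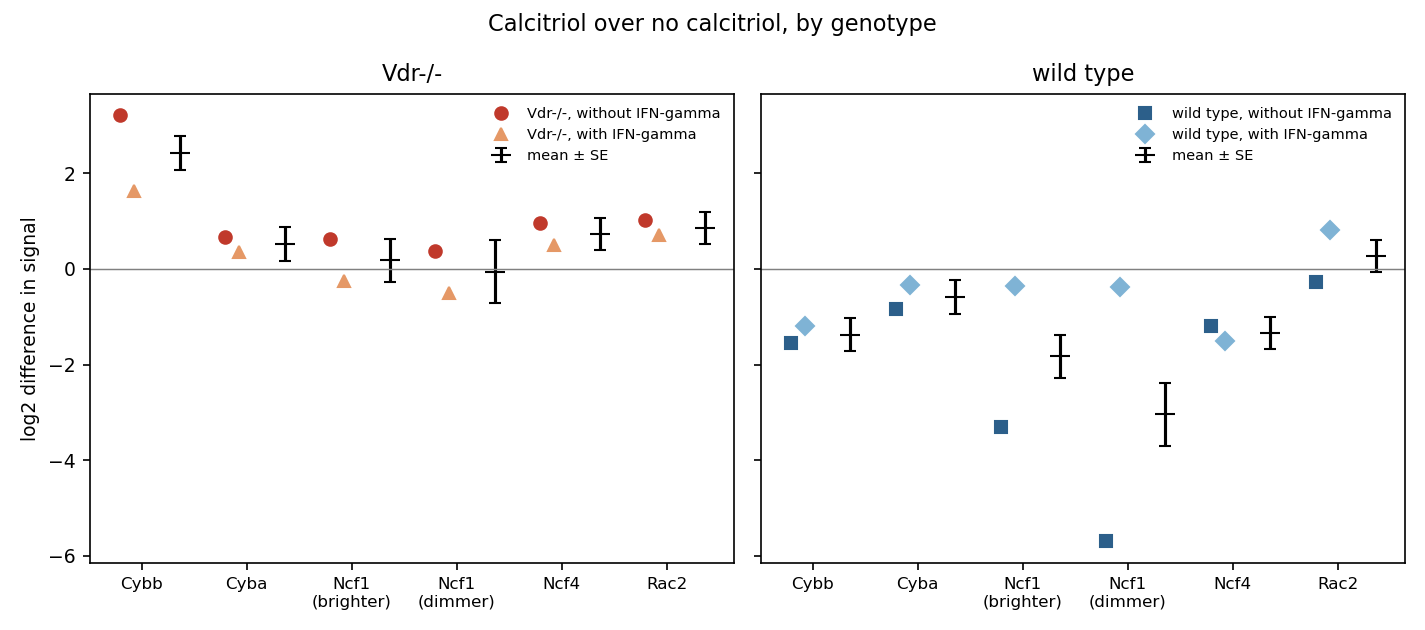
Log2 difference in signal, calcitriol over no calcitriol, in each array pair of Vdr-/- (left) and wild-type cells (right), with the mean and its SE from limma (black). Cybb, Cyba and Ncf4 lie above 0 in both Vdr-/- pairs and below 0 in both wild-type pairs, and the dimmer Ncf1 probe set reaches -5.70 in the wild-type pair without IFN-gamma.

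Genes around the oxidase were read in the same fits. In Vdr-/- cells Arhgdib (2.21, limma adjusted p = 0.00607) of the assembly list and Cd68 (1.66, limma adjusted p = 0.0416), a lysosomal macrophage marker, rose with calcitriol, and 0 fell in any list. In wild-type cells Fcgr1 (-2.36, limma adjusted p = 0.00439) and Cd14 (-2.16, limma adjusted p = 0.00636), a co-receptor for endotoxin, fell with calcitriol, and 0 genes of the assembly, peroxide and transcription factor lists passed by limma. The difference between genotypes passed for Arhgdib (3.17, limma adjusted p = 0.00114) and, of the 9 macrophage markers, for Fcgr1, Itgam, Cd14 and Cd68 (3.79, 3.63, 2.73 and 2.70), all higher. The other 5 markers ran from -0.71 (Mpeg1) to 1.06 (Adgre1), with Lyz2 at -0.17, Csf1r at -0.10 and Mertk at 0.08, and the list median was 1.06. Itgax, an integrin subunit of dendritic cells and some macrophages, was lower (-2.32, limma adjusted p = 0.0337). Without the 2 arrays of the highest ratio, or with any 1 pair left out, all these calls ended. With exchanged untreated labels those in Vdr-/- cells and those of the difference ended too. In these fits no tested probe set passed for the effect concerned, so the lost calls are not particular to the listed genes. Cd68 read 1052 to 2201 on the 3 arrays with the highest Gapdh ratio and 2589 to 7964 on the other 5. Arhgdib read 310.8 to 678.5 on those 3 arrays and 683 to 3097 on the other 5. The ranges overlapped for Fcgr1 (145.2 to 1538.3 and 544.3 to 3897) and Itgam (80 to 199.7 and 105.8 to 977.6). They also overlapped for Cd14 (422.3 to 1036.9 and 228.3 to 2271.9) and Itgax (277.8 to 1242.8 and 108.3 to 1279.2). Of all tested probe sets, 2.74% had these 3 arrays below the other 5.

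The summed signal of the macrophage markers was 58265 to 66571 in Vdr-/- cells with calcitriol, 54351 to 70980 in Vdr-/- cells without it, 46303 to 69784 in wild-type cells with it and 60704 to 61456 in wild-type cells without it. These ranges overlap between the arms of each genotype, and the part of the markers in the oxidase values was not tested. The sums are led by Lyz2, Csf1r and Mpeg1, with mean signals of 21686, 18104 and 10639. Itgam, Cd14 and Fcgr1 had means of 320.1 to 1340, so their changes hardly show in the sums.

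The third comparison, Vdr-/- against wild type over 4 pairs matched in treatment, gave 0 of 5 subunits past the test. Cybb had log2 differences of -1.93 and -2.15 in the pairs without calcitriol and of 2.84 and 0.68 in the pairs with it, and a mean of -0.14 (SE 0.52). Rac2 had the lowest mean, -0.78 (SE 0.30), lower in 3 of 4 pairs. Ncf1 had 0.95 (SE 0.41) on its brighter probe set, higher in 3 of 4 pairs, with 3.23 in the pair of calcitriol alone, and 0.19 without that pair. Cyba had -0.39 (SE 0.36) and Ncf4 0.18 (SE 0.36), and the limma adjusted p was 0.999 for all 6 probe sets. Of all tested probe sets 0% passed by limma, with 611 at an unadjusted p under 0.05, and 0 genes of any list passed. The signal ranges of the genotypes overlapped for each subunit.

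The subunits did not share 1 pattern over the arrays. Pearson's r of log2 signal over the 8 arrays, given as a description of points that share arrays and RNA quality, was 0.75 between Cybb and Cyba and 0.74 between Cybb and Ncf4. It was 0.50 between Cybb and Ncf1 and -0.02 between Ncf4 and Rac2. Without the 2 arrays of the highest ratio it was 0.45 for Cybb and Cyba, 0.57 for Cybb and Ncf4 and -0.46 for Cybb and Ncf1. The sign between Cybb and Ncf1 thus depended on those 2 arrays.

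Among the 10366 genes compared, the other genes with the pattern most like Cybb were Tbc1d13 (r = 0.99), Eef1a1, a translation elongation factor (0.97), and Slfn2 (0.97). For Cyba they were Hnrnpf (0.99), Clcc1 (0.97) and Max (0.96), and for Ncf1 Dnaja2 (0.99), Bnip2 (0.99) and Map3k8 (0.99). For Ncf4 they were Prps2 (0.97), Anxa6 (0.97) and Hal (0.96), and for Rac2 Elmo2 (0.96), Slc8b1 (0.94) and Kifc2 (0.94). Eef1a1 read 13838 on the Vdr-/- calcitriol array, where Cybb was highest, and 3608 on the array labelled Vdr-/- untreated, where Cybb was lowest. With 8 arrays and this many genes, a high r is a description of these arrays.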

How the data were processed

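Total RNA was measured on 8 one-colour arrays. The deposited values are linear probe set intensity signals; the arrays share a 2% trimmed mean (150.07 to 150.08 from the values), and the sources used here name no software, scaling method or detection call of the authors. From these, 64 of 22690 probe sets were set aside as controls, signals below the pooled 25th percentile (15.5) were raised to it, and log2 was taken. The tests covered 18058 probe sets with at least 1 signal at or above the pooled median (59.1). The floor held 15.6% of tested values. The annotation named 1 gene for 20380 probe sets, several for 691 and none for 1555. The probe set with the highest mean signal stands for a gene in counts.

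Tests used limma 3.58.1 in R 4.3.3 (empirical Bayes, intensity trend, two-sided, Benjamini-Hochberg over all tested probe sets). IFN-gamma and genotype were fitted with 4 pairs as blocks, which leaves 3 residual degrees of freedom. Calcitriol and both differences were nested in genotype, which leaves 2. The fits were tested on data simulated at the moderated spread. There a log2 change of 2 was recovered for 62.7% of changed probe sets for IFN-gamma, 46.3% for genotype and 28.4% for each calcitriol effect. For the calcitriol difference it was 7.5%, and for the IFN-gamma difference 6%. A gene that did not pass may thus still differ. Pairs that share arrays are not independent, and the p-values measure only the spread between these arrays, moderated across probe sets by signal level.

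All 5 members were named, with 3 genes of most like pattern each and the called genes of 9 gene lists. The members and lists were chosen with earlier results of these data known. Alternatives changed the normalization, floor, filter, trend, blocks and probe set rule, left out pairs or arrays, added the Gapdh ratio or exchanged the untreated labels. Figures were drawn with matplotlib 3.10.9.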

Additional observations from a re-analysis of the deposited data

Results flagged for a closer look

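The difference of the calcitriol effect between the genotypes passed the test for 2 of 5 subunits, against 1.5% of tested probe sets (271 of 18058). For Cybb the effect in Vdr-/- cells minus that in wild-type cells was 3.80 on the log2 scale (limma adjusted p = 0.000566), with pairs at 3.22 and 1.64 in Vdr-/- cells and -1.55 and -1.19 in wild-type cells. For Ncf4 it was 2.07 (limma adjusted p = 0.0226), with pairs at 0.95 and 0.49 in Vdr-/- cells and -1.19 and -1.50 in wild-type cells. Both differences include the array labelled Vdr-/- untreated and the wild-type calcitriol array, which had the highest Gapdh ratios, 4.82 and 7.67. The Vdr signals of the 2 untreated arrays went against their labels. Both calls ended with those labels exchanged (limma adjusted p = 0.298 and 0.776). They also ended with additive terms and the ratio as a covariate (limma adjusted p = 0.864 and 0.732).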

How the results depend on the processing

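Of 430 single values under the alternatives, 344 kept their direction and side of the threshold, 44 lost the call, 3 gained one and 39 changed sign without passing the threshold. With IFN-gamma, 1 subunit (Ncf1) passed, and 0 did with quantile normalization, no or a stricter filter, a lower floor, no trend, additive terms, exchanged untreated labels, means over probe sets, the Gapdh ratio as a covariate or without the 2 arrays of the highest ratio; pairs left out gave 0 to 1, the 1 being Cybb. The fits with the covariate and without the 2 arrays also have additive terms, here and below. For calcitriol in Vdr-/- cells, 1 became 0 with no or a stricter filter, a lower floor, no trend, the ratio as a covariate, exchanged labels, or without the 2 arrays, and pairs left out gave 0. In wild-type cells, 0 became 1 (Ncf1) with a higher floor. For the calcitriol difference, 2 became 1 with a lower floor and 0 with no or a stricter filter, no trend, the covariate, exchanged labels or without the 2 arrays, and pairs left out gave 0. For the IFN-gamma difference, 0 became 1 (Cybb) with exchanged labels. The genotype count was 0 throughout. The cause was not tested.

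Sign changes with IFN-gamma were Cyba at -0.0108 with quantile normalization, Cybb, Cyba and Ncf4 at -0.59, -0.29 and -0.47 without the 2 arrays and at -0.006, -0.0827 and -0.21 with the covariate, and Ncf4 with pairs left out (-0.0469 to 0.15). For genotype they were Cybb and Cyba at 0.83 and 0.21 with exchanged labels, and with pairs left out Cybb (-1.13 to 0.53) and Ncf4 (-0.18 to 0.57). For calcitriol in Vdr-/- cells they were Ncf1 at -0.36 without the 2 arrays, Ncf1 and Rac2 at -2.08 and -0.0335 with the covariate, Cyba and Ncf1 at -0.0865 and -0.17 with exchanged labels, and Ncf1 with pairs left out (-0.26 to 0.62). In wild-type cells they were Ncf1 at 0.11 with the covariate, Cyba at 0.0152 with exchanged labels and Rac2 with pairs left out (-0.28 to 0.82). For the calcitriol difference they were Rac2 at -0.11 without the 2 arrays, Ncf1 and Rac2 at -2.19 and -1.07 with the covariate, and Cyba and Rac2 at -0.10 and -0.66 with exchanged labels. For the IFN-gamma difference they were Ncf1, Ncf4 and Rac2 at 0.40, -0.19 and 0.0437 without the 2 arrays, Ncf1 at 0.0248 with the covariate, and Cyba and Ncf4 at -1.10 and -0.79 with exchanged labels. With pairs left out that difference ran from -0.15 to 0.36 for Cyba, -0.0379 to 0.42 for Ncf4, -2.11 to 0.85 for Ncf1 and -0.90 to 0.20 for Rac2.

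Over all tested probe sets, calls ran from 53 to 650 for IFN-gamma (619 as reported), 0 to 58 for calcitriol in Vdr-/- cells (35), 0 to 135 in wild-type cells (104), 0 to 334 for the calcitriol difference (271), 0 to 23 for genotype (0) and 0 to 109 for the IFN-gamma difference (0). Calls were 0 for calcitriol in Vdr-/- cells and for the calcitriol difference with no or a stricter filter, no trend or exchanged labels. They were also 0 for both without the 2 arrays or with a pair left out. No paired analysis by replicate number was possible because each group has 1 array. The precision is limited by 1 array per group, by the values at the floor and by the uneven 3'/5' ratios.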
